A study of Mus musculus with 9 samples.

Results

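The interferon response genes described here are 9 genes that cells switch on, or use to relay the signal, when they sense interferon: Ifit1, Ifit3, Isg15, Rsad2, Ifitm3, Bst2, Stat2, Irf9 and Irf7. They were chosen by name. The level of each was the sum of the FPKM (sequenced fragments divided by transcript length and by the size of the library, a level per length) of all its transcripts in the mRNA table, after the transcripts had been matched to GENCODE M21. These 9 are a small part of the 21809 gene sums of that table, and all 9 passed the filter of a mean of at least 0.1 FPKM that left 16096 gene sums to test. RNA was measured in the trigeminal ganglion (TG), which holds the cell bodies of the sensory neurons of the face and jaw, of 8-week-old male C57BL/6 mice. The mice had received 10 µl of saline or of complete Freund's adjuvant (CFA, 5 mg/ml, an emulsion that inflames the joint) in the temporomandibular joint (TMJ) of one side. The 3 groups were saline, labelled day 3 (replicates 1 to 3), CFA at day 3 (CFA3D, replicates 1 to 3) and CFA at day 6 (CFA6D, replicates 4 to 6). Each library pooled unilateral TG punches of 3 mice, no saline library was labelled day 6, and the same 3 saline libraries served in both comparisons with saline.

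Interferons are secreted proteins by which a cell warns its neighbours of viruses and other danger. Type I interferons act through the receptor Ifnar1 and Ifnar2 and the kinases Jak1 and Tyk2, which phosphorylate Stat2. Stat2 and Irf9 are parts of ISGF3, a transcription factor that binds the interferon-stimulated response element (ISRE) in front of target genes. Interferon gamma, made mainly by T and NK cells, acts on genes that carry the gamma-activated site (GAS). In sensory ganglia, neurons, satellite glia, macrophages and other resident or entering cells can all answer interferon.

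The promoters of most of these genes carry the core letters of the response element, and the stretches that hold it are shown because this is the DNA through which ISGF3 is known to act. They are taken from RefSeq on build GRCm38.p6, from windows of 250 bases before to 50 bases after the annotated start. The core searched was GAAA, any 2 bases and GAAA again, on both strands. Its matches are in capitals in sequences read along the gene's own strand, where a match on the other strand begins and ends with TTTC.
Ifit1, chr19:34640775-34640823 (+): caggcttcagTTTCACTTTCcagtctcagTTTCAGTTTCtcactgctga
Ifit3, chr19:34583363-34583426 (+): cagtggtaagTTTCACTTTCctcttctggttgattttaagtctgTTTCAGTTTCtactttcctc
Isg15, chr4:156200865-156200906 (-): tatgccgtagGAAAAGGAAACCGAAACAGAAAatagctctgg
Bst2, chr8:71537577-71537612 (-): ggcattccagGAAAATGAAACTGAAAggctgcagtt
Rsad2, chr12:26456553-26456582 (-): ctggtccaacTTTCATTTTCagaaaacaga
Stat2, chr10:128270266-128270295 (+): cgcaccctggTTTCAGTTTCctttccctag

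Isg15 held 3 overlapping matches within the 88 bases before its start, Bst2 held 2 that overlap, and Ifit1 and Ifit3 held 2 apart from each other. Ifitm3 held 2 matches as well, but both lay just after its start. In all, 7 of the 9 genes (77.8%) had the core in the window, against 1079 of 27025 genes of the reference (3.99%). Irf7 and Irf9 had none, which says only that these letters were not in their windows. The longer form in which the core is followed by CT was present in 4 of the 9 (44.4%: Ifit1, Ifit3, Bst2 and Ifitm3) and in 0.303% of all genes. The GAS core TTCNNNGAA was present in Bst2 and Ifitm3 (22.2%), in both overlapping an ISRE match, and in 9.55% of all genes. A gamma list was made of GTPases and chemokines known for their response to interferon gamma, and of Ciita, which is neither. Of its 12 genes with a promoter in the reference, 10 (83.3%) held the ISRE core and 6 (50%) the GAS core.

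Per length, Ifitm3 was by far the most abundant of the 9, with a mean of 51.3 FPKM over the 9 libraries, and its lowest library (40.4 FPKM) stood above the highest library of every other member. Stat2 (15.2), Bst2 (11.6), Ifit3 (9.46), Irf9 (6.28), Isg15 (4.97), Ifit1 (3.80), Irf7 (2.55) and Rsad2 (1.93) followed, and the ranges of each neighbouring pair in this order overlapped. The FPKM values corresponded to about 30.35 M to 42.48 M read pairs a library, as roughly estimated from the step between low values. This is not the number of reads sequenced, which the paper gives per group and which is larger. Isg15 rested on about 69 to 322 read pairs a library and Ifitm3 on 884 to 1969. For some members the reads could not be assigned freely. Of the 50-base stretches of Ifit3, 51.2% also occur in its near copy Ifit3b, and the shares were 10.0% in Ifitm3, 7.13% in Ifit1 and 3.96% in Isg15. Irf9 overlaps Rnf31 on the same strand and Irf7 overlaps Phrf1 on the other strand. Their values are therefore less certain than those of Bst2 or Rsad2, whose main transcripts shared no such stretch.

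Among the antiviral effectors, Ifit1 (chromosome 19, 34640871 to 34650009, plus strand), which binds viral RNA that lacks the host's cap methylation, measured 2.91, 3.09 and 2.60 FPKM in saline, 2.64, 5.97 and 4.72 on CFA3D, and 2.82, 3.33 and 6.10 on CFA6D. Ifit3 (chromosome 19, 34583531 to 34588731, plus strand), its partner in the same gene cluster, measured 6.92, 7.80 and 9.38 FPKM in saline, 13.5 in CFA3D replicate 2 beside 6.56 and 10.4 in the other CFA3D libraries, and 15.2 in CFA6D replicate 6 beside 6.10 and 9.28. Both genes were highest in CFA6D replicate 6 and next in CFA3D replicate 2, and in both the CFA ranges contained or overlapped the saline range.

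Isg15 (chromosome 4, 156199424 to 156200818, minus strand), a ubiquitin-like protein that is attached to other proteins, measured 2.96, 4.59 and 3.75 FPKM in saline, 2.24, 7.21 and 4.90 on CFA3D, and 3.71, 4.13 and 11.2 on CFA6D. Rsad2 (chromosome 12, 26442746 to 26456452, minus strand), the radical SAM enzyme viperin, measured 1.22, 2.19 and 1.26 FPKM in saline, 0.877, 2.36 and 1.57 on CFA3D, and 1.48, 1.38 and 5.02 on CFA6D. In each of these genes CFA6D replicate 6 was 2.29 times the third-highest library. Each also had its lowest value in a CFA library, CFA3D replicate 1.

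Ifitm3 (chromosome 7, 141009586 to 141010770, minus strand), a membrane protein that hinders viral entry, measured 44.1, 43.0 and 50.5 FPKM in saline, 42.0, 72.9 and 48.0 on CFA3D, and 40.4, 46.0 and 74.7 on CFA6D. Bst2 (chromosome 8, 71534255 to 71537456, minus strand), tetherin, which holds budding virus on the cell surface, measured 10.2, 9.90 and 9.31 FPKM in saline, 9.42, 15.8 and 11.2 on CFA3D, and 10.7, 13.0 and 15.3 on CFA6D. Bst2 was the only member whose groups did not overlap in any comparison, with the 3 CFA6D libraries above the 3 saline libraries. Such an order, CFA6D above saline, was found in 10.7% of all gene sums. It was also the only member highest in CFA3D replicate 2, narrowly above CFA6D replicate 6.

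The transcription factors followed the effectors. Stat2 (chromosome 10, 128270559 to 128292849, plus strand) measured 14.4, 14.8 and 9.83 FPKM in saline, 14.3, 21.8 and 13.2 on CFA3D, and 14.9, 11.1 and 22.5 on CFA6D. Irf9 (chromosome 14, 55603571 to 55610030, plus strand), the DNA-binding subunit of ISGF3, measured 5.67, 5.80 and 5.84 FPKM in saline, 5.87, 7.38 and 5.12 on CFA3D, and 5.98, 5.33 and 9.56 on CFA6D. Irf9 had the tightest saline group of the 9 (5.77 ± 0.0890, SD, n = 3), and both CFA groups nevertheless reached below it.

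Irf7 (chromosome 7, 141262706 to 141266481, minus strand), which drives the genes of interferon alpha and amplifies the response, measured 2.55, 1.77 and 1.62 FPKM in saline, 1.64, 2.81 and 1.75 on CFA3D, and 1.43, 2.17 and 7.23 on CFA6D. CFA6D replicate 6 was 2.84 times the third-highest library, the largest such gap among the 9, while CFA3D replicate 2 was only 1.10 times it. Much of the sum in CFA6D replicate 6 came from transcripts that retain an intron, which are given below. The other CFA6D libraries lay within or below the saline range.

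**Figure D1:**
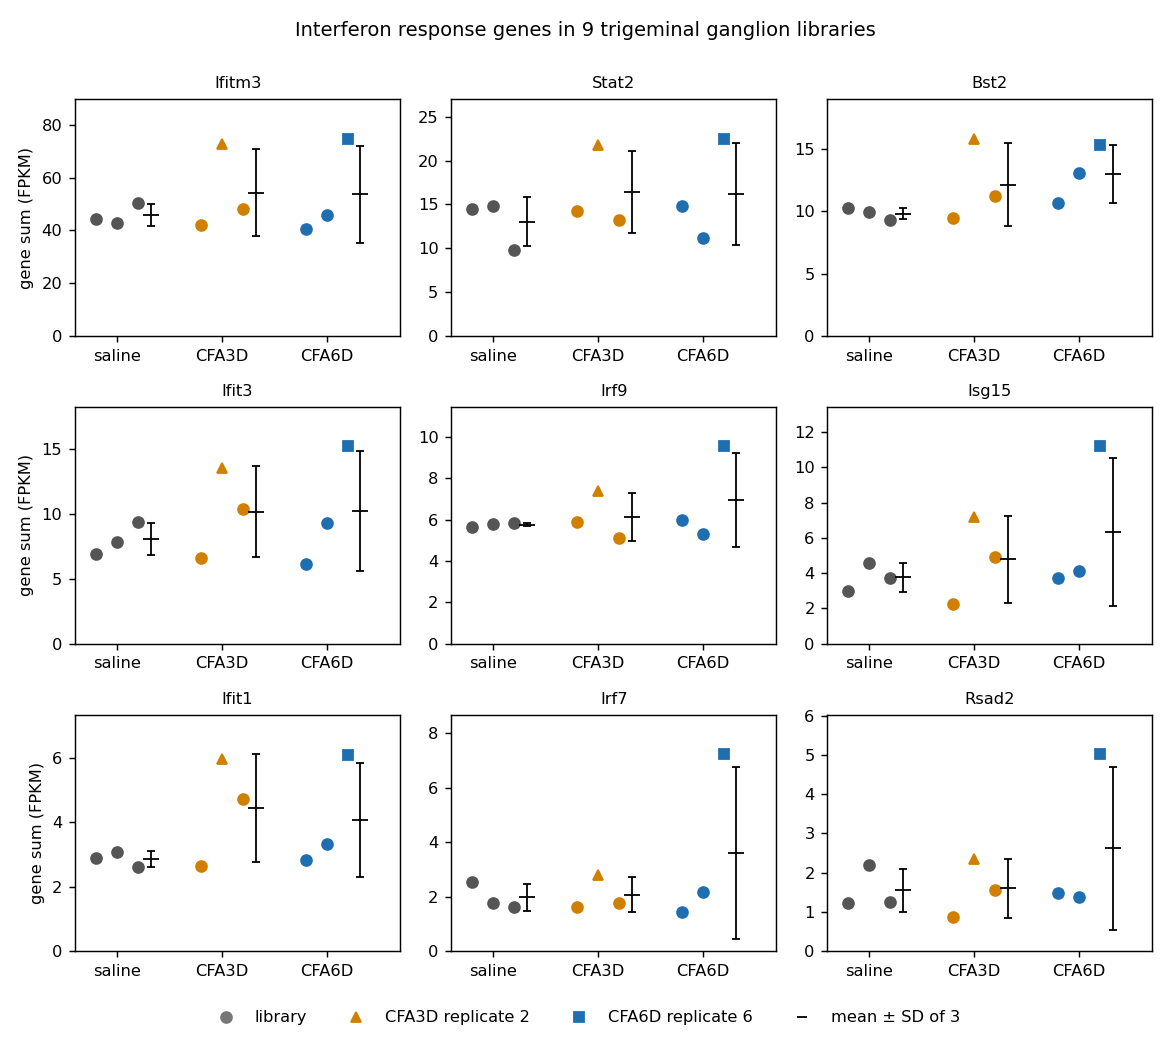
Gene sums of the 9 interferon response genes (y axis, FPKM, from 0) in the saline, CFA3D and CFA6D libraries, with each library as a symbol and the mean ± SD of 3 libraries as a bar. The triangle, CFA3D replicate 2, and the square, CFA6D replicate 6, are the 2 highest symbols in every panel.

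With CFA3D set against saline, none of the 9 genes passed an unadjusted p of 0.05 in limma (0 of 9), where 4.45% of all gene sums did, and 0 of 16096 gene sums had an adjusted p under 0.05. Of the 9 log2 changes 8 were above 0, as were 64.6% of all gene sums, and their median was 0.21 against 0.055 over all gene sums. Ifit1 had the largest estimate, from 2.87 ± 0.247 FPKM in saline to 4.44 ± 1.68 on CFA3D (SD, n = 3 each), a log2 change of 0.54 with a 95% interval of -0.20 to 1.28 (adjusted p = 0.997). Rsad2 was at -0.013, with an interval of -1.14 to 1.12. Intervals of this width leave room for a doubling of Ifit1, Ifit3, Isg15, Irf7 or Rsad2 as well as for no difference at all. Without CFA3D replicate 2, the members' median was -0.027 and 5 of the 9 were below 0, and without CFA3D replicate 1 Ifit1 and Bst2 passed p under 0.05. Ifit1 also passed with the replicate number as a block.

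With CFA6D set against saline, again 0 of 9 passed p under 0.05, where 11.1% of all gene sums did, and 0 of 16096 passed after adjustment. All 9 estimates were above 0, as were 54.4% of all gene sums, with a median of 0.39 against 0.026 over all gene sums. Bst2 came closest to the threshold, from 9.81 ± 0.467 to 13.0 ± 2.32 FPKM, a log2 change of 0.39 with an interval of -0.033 to 0.81 (adjusted p = 0.494). Isg15 had the largest estimate, 0.57, with an interval of -0.50 to 1.65 (adjusted p = 0.703). Without CFA6D replicate 6 the median was -0.031 and 5 of the 9 were below 0, with Bst2 still above 0. In that comparison Bst2 passed p under 0.05 when only the libraries compared entered the fit, or when CFA3D replicate 1, CFA3D replicate 2 or CFA6D replicate 4 was left out.

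With CFA6D set against CFA3D, 0 of 9 passed, where 7.39% of all gene sums did, and the changes ran from -0.12 for Ifit1 to 0.53 for Rsad2. With both CFA days set against saline, 0 of 9 passed, where 8.19% of all gene sums did. In that contrast all 9 estimates were above 0, as were 59.7% of all gene sums, with a median of 0.29, and Bst2 was again nearest to the threshold with 0.33 (interval -0.035 to 0.69, adjusted p = 0.663). Without CFA3D replicate 2 and CFA6D replicate 6, the median of that contrast was -0.041 and 6 of the 9 were below 0. Ifit1 and Bst2 passed p under 0.05 without CFA3D replicate 1, and Bst2 without CFA6D replicate 4.

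**Figure D2:**
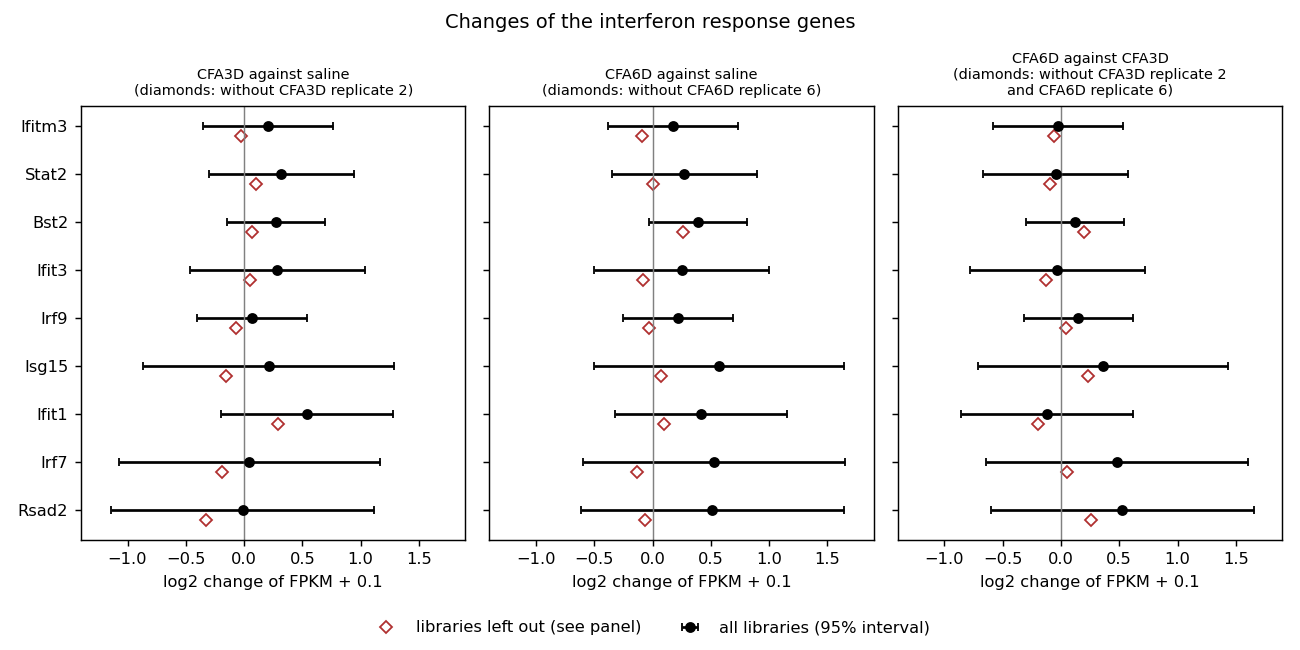
Log2 change of FPKM + 0.1 (x axis) of each interferon response gene (y axis) in 3 comparisons, with filled circles and 95% intervals from all 9 libraries, and open diamonds from the fit without the libraries named above each panel. Every interval crosses 0, and in the comparisons with saline most diamonds lie nearer to 0 than the circles or beyond it.

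What the 9 genes shared was their pattern over single libraries. CFA6D replicate 6 and CFA3D replicate 2 were the 2 highest of the 9 libraries for all 9 genes, an arrangement found in 8.14% of all gene sums. CFA6D replicate 6 was the highest in 8 of the 9 genes. The arrangement was not particular to the members. It held for 27 of 39 other interferon-induced genes (69.2%), 7 of 10 class I genes (70%) and 12 of 19 genes of the gamma list (63.2%). It also held for 7 of 12 sensors (58.3%), 4 of 7 negative regulators (57.1%), 4 of 11 signalling genes (36.4%) and 1 of 6 receptor genes (16.7%). Relative to each gene's median over the 9 libraries, the median member stood at 0.71 on the log2 scale in CFA6D replicate 6 and at 0.63 in CFA3D replicate 2, while in the other 7 libraries it lay between -0.18 and 0.069. The corresponding values over all gene sums were 0.013 and 0.066. Both libraries belong to CFA groups, but the median member of the other CFA libraries stood within 0.18 of its own median.

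**Figure D3:**
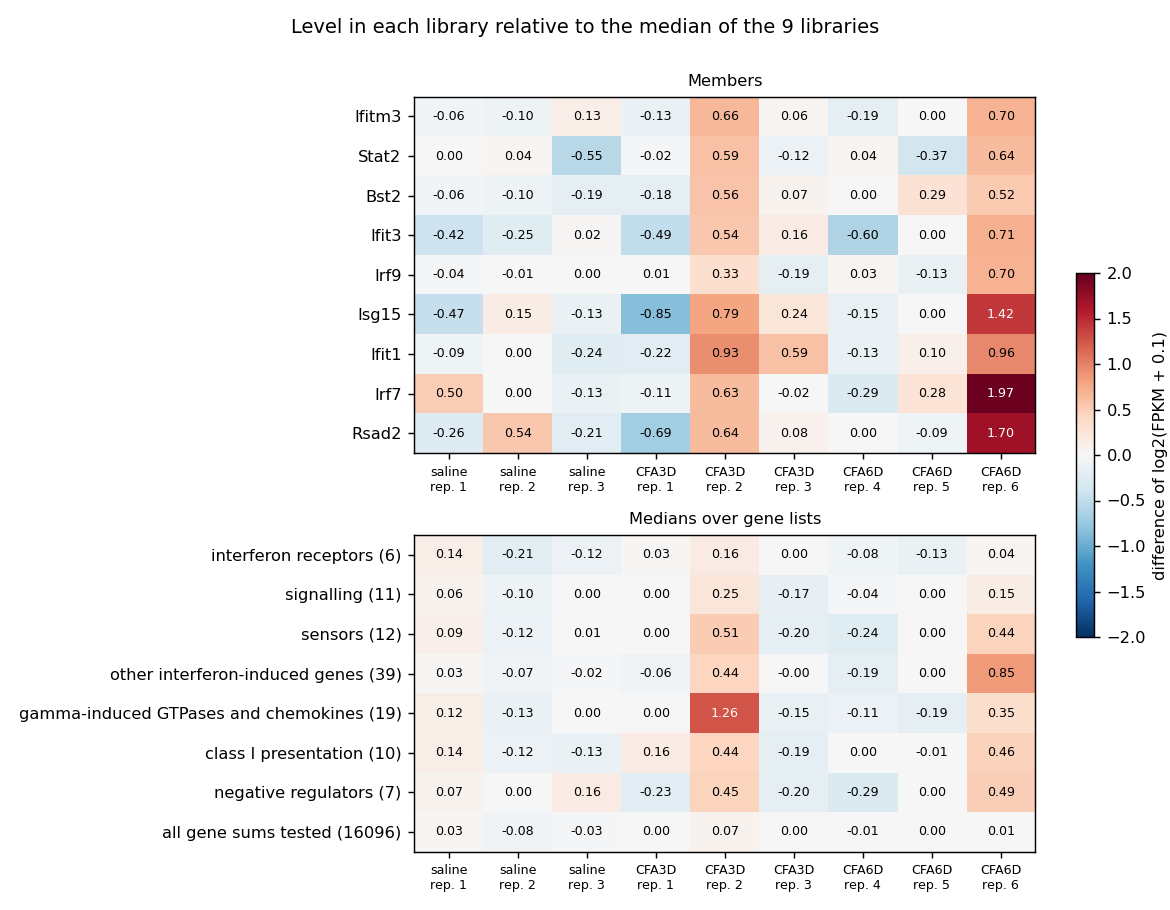
Difference of log2(FPKM + 0.1) from the gene's median over the 9 libraries (colour and printed value) for the 9 interferon response genes (upper block) and as medians over gene lists, with the number of genes in parentheses (lower block). The columns of CFA3D replicate 2 and CFA6D replicate 6 are positive for every member, whereas the medians of all 16096 gene sums stay near 0.

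The spread of the members within groups was large for that reason. Their median within-group SD was 0.48 on the log2 scale, against 0.19 over all gene sums, and the difference between groups made up 14.0% of a member's variance at the median, against 24.6% over all gene sums. The highest library was 2.34 times the lowest at the median, against 1.54 times over all gene sums, and this ratio reached 5.73 in Rsad2, 5.05 in Irf7 and 4.99 in Isg15. As a description over the same 9 libraries, the 36 pairs of members had correlations of 0.52 to 0.96 with a median of 0.79. Isg15 and Rsad2 were most alike (0.96), and Ifit3 and Stat2 least (0.52).

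The 5 gene sums most like the mean of the members over the 9 libraries were Slfn9 (r = 0.97), Srgn (0.95), Smim3 (0.95), Dram1 (0.95) and Sp100 (0.95). Srgn, the proteoglycan serglycin of the granules of blood cells, measured 20.8 FPKM in CFA6D replicate 6 and 16.2 in CFA3D replicate 2, and 8.92 to 10.8 in the other 7. Sp100, a nuclear body protein, measured 15.1 and 7.18 FPKM in these libraries and 3.66 to 4.89 in the others. The points share the same 9 libraries, and all 5 genes had the same pair of libraries on top.

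Markers of immune cells also differed between these libraries. The summed level of 5 neutrophil markers was 2567.8 FPKM in CFA6D replicate 6, against 22.9 to 130 in the other 7 libraries and 69.1 in CFA3D replicate 2. The sum of 4 markers of T and NK cells was 3.42 FPKM in CFA3D replicate 2 and 3.58 in CFA6D replicate 6, against 0.713 to 1.82 in the others. Nkg7, a granule protein of NK and cytotoxic T cells, made up 2.56 FPKM of the sum in CFA6D replicate 6, where the genes of the T cell receptor complex Cd3d, Cd3e and Cd3g lay within the range of the other libraries. In CFA3D replicate 2 Nkg7 (1.66 FPKM), Cd3e (0.582) and Cd3g (0.949) exceeded the other 7 libraries, but Cd3d (0.228) lay below CFA3D replicate 1 (0.459). The 6 macrophage markers summed to 130 FPKM in CFA3D replicate 2, the highest of all, and to 79.8 in CFA6D replicate 6, within the 49.5 to 105 of the others. Endothelial markers were highest in CFA3D replicate 2 (27.6 FPKM, others 13.0 to 21.9) and B cell markers in CFA6D replicate 6 (4.68 FPKM, against 1.21 in CFA3D replicate 2). The 2 markers of plasmacytoid dendritic cells, which are known as strong producers of type I interferon, summed to 1.89 FPKM in CFA6D replicate 6 and to 1.10 in CFA3D replicate 2, against 0.629 to 1.46 in the other 7. No marker of these lists was listed at 0 in any library. Neuronal markers, which check the labelled tissue, summed to 1443 to 2073 FPKM in all 9 libraries. Pituitary hormone genes reached 10447 FPKM in saline replicate 3, a library in which no member was highest. The part of any of these cells in the members' levels was not tested, and in bulk tissue fewer cells of a type and less RNA per cell cannot be told apart.

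The other genes of the pathway were read from lists. Of 12 interferon genes in the table only Ifnk, an interferon of epithelia, passed the filter. Ifng reached at most 0.146 FPKM, in saline replicate 2. Ifnz was listed at 0.0498 to 0.0700 FPKM in saline, 0.0173 to 0.0223 on CFA3D and 0.0109 to 0.0148 on CFA6D. Its mean of 0.0303 FPKM was under the filter, so it was not tested. Ifna13 was listed at 0.0967 FPKM in CFA6D replicate 5 and at 0.0407 in saline replicate 2, and Ifna2 at 0.0230 in CFA3D replicate 1. Ifnb1 was listed above 0 in CFA3D replicate 2 alone (0.0297 FPKM). In that library a read pair per kb of transcript was worth about 0.0251 FPKM, so this value is near the floor. Ifnk itself measured 1.34, 1.17 and 0.802 FPKM in saline, 1.65, 1.31 and 0.819 on CFA3D, and 0.507, 0.430 and 0.560 on CFA6D. All CFA6D libraries lay below all saline libraries (an order found in 5.5% of all gene sums) and below all CFA3D libraries, by a log2 change of -0.98 from saline (interval -1.61 to -0.36, adjusted p = 0.231).

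In CFA6D replicate 6 the median receptor gene stood 0.042 and the median signalling gene 0.15 above its own median on the log2 scale. In CFA3D replicate 2 these values were 0.16 and 0.25, and all were below those of the members. Single genes varied widely, such as Ifnlr1 below, Irf8 (1.32 to 4.42 FPKM) and Ikbke (1.21 to 4.23). Of the 6 receptor genes, 0 passed p under 0.05 against saline, where 4.45% (CFA3D) and 11.1% (CFA6D) of all gene sums did. Ifnar1, the signalling chain of the type I receptor, measured 11.3 to 14.6 FPKM over the 9 libraries, and Ifngr1, a chain of the receptor for interferon gamma, 6.92 to 12.0. Il10rb, shared by the receptors for interferon lambda and interleukin 10, measured 10.3 to 15.1 FPKM. Ifnlr1, the chain particular to interferon lambda, measured 0.378, 0.246 and 1.22 FPKM on CFA6D against 0.152, 0.204 and 0.185 on CFA3D (log2 change 1.11, adjusted p = 0.671), with its highest value in CFA6D replicate 6.

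Among 11 signalling genes, 0 passed in either comparison with saline, where 4.45% (CFA3D) and 11.1% (CFA6D) of all gene sums did. Jak1 measured 41.4 to 55.0 FPKM, Irf3, which responds to nucleic acid sensing, 15.4 to 23.0, and Tbk1, the kinase in front of it, 13.5 to 17.8. Of the 12 sensors of foreign nucleic acid and their adaptors, 0 passed as well. Ddx58, the RNA sensor RIG-I, measured 10.0 FPKM in CFA3D replicate 2 and 9.40 in CFA6D replicate 6, against 5.38 to 7.55 in the others. Myd88, the adaptor of Toll-like receptors, had the same 2 libraries on top (4.99 and 4.67 FPKM), whereas Mavs, the adaptor of RIG-I, was highest in CFA3D replicate 2 (5.76 FPKM) but measured 4.33 FPKM in CFA6D replicate 6, within the 3.55 to 5.10 of the other 7.

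Of 39 other interferon-induced genes tested, 1 had a p under 0.05 on CFA3D and 0 on CFA6D, where 4.45% and 11.1% of all gene sums did. Their median log2 changes were 0.17 and 0.22, against 0.055 and 0.026 over all gene sums. The gene on CFA3D was Ifit2, the neighbour and relative of Ifit1 and Ifit3. It measured 5.59, 5.64 and 4.95 FPKM in saline, 6.52, 6.69 and 6.67 on CFA3D, and 5.54, 5.92 and 6.02 on CFA6D, a log2 change of 0.29 on CFA3D (interval 0.086 to 0.50, adjusted p = 0.997). All 3 CFA3D libraries lay above all saline libraries, as in 7.01% of all gene sums, and CFA3D replicate 2 was not set apart from its group as it was for Ifit1 and Ifit3. Among the 3 most abundant genes of that list, Ifi27 measured 65.4 to 96.6 FPKM. It was lower on CFA6D than on CFA3D (log2 change -0.35, p under 0.05 before adjustment as in 7.39% of all gene sums, adjusted p = 0.641). Ifitm2, a close relative of Ifitm3, measured 22.1 to 40.9 FPKM, and Lgals3bp 14.7 to 21.4.

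The 2 libraries differed in which interferon genes were high. CFA6D replicate 6 was the highest library in 26 of the 39 other interferon-induced genes, with a median of 0.85 above the gene's own median on the log2 scale, against 0.44 in CFA3D replicate 2. Oas3 and Oas2, which make the oligoadenylates that activate RNase L, are examples picked after their values were seen. Oas3 measured 6.48 FPKM in CFA6D replicate 6 and 0.199 to 0.510 in the other 8 libraries, and Oas2 5.97 FPKM against 0.615 to 2.31.

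For the list of GTPases and chemokines of the interferon gamma response, with Ciita in it, the order was the other way round. CFA3D replicate 2 was the highest library in 18 of 19, with a median of 1.26, against 0.35 in CFA6D replicate 6. Gbp2, a guanylate-binding protein, measured 11.02 FPKM in CFA3D replicate 2, 5.15 in CFA6D replicate 6 and 3.31 to 4.56 in the others. Igtp measured 10.0 FPKM in CFA3D replicate 2 and 6.34 in CFA6D replicate 6, and Irgm1, like it an immunity-related GTPase, 8.56 and 7.57. Gvin1, the exception, was highest in CFA6D replicate 6 (3.01 FPKM against 2.14). The members lay with the other interferon-induced genes, since 8 of 9 (88.9%) were higher in CFA6D replicate 6 than in CFA3D replicate 2, as were 29 of 39 (74.4%) of those genes, 1 of 19 (5.26%) of the gamma list and 45.3% of all gene sums. With 1 library on each side these are descriptions of the libraries.

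**Figure D4:**
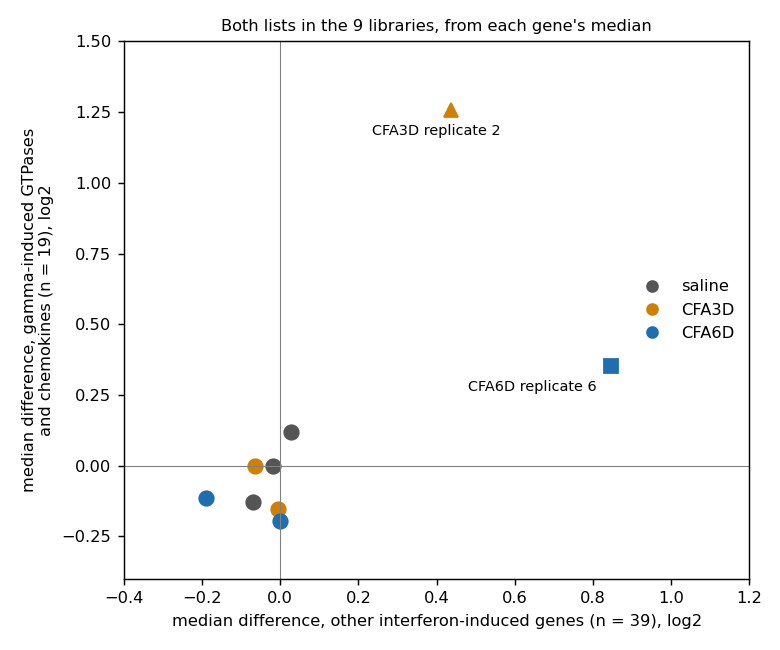
Median difference from each gene's own median over the 9 libraries, on the log2 scale, with 1 symbol per library. The x axis is for 39 other interferon-induced genes and the y axis for the 19 genes of the gamma list (GTPases and chemokines, with Ciita). CFA3D replicate 2 is high on the y axis (1.26) and CFA6D replicate 6 on the x axis (0.85), while the other 7 libraries lie near 0 on both.

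Of 10 genes of class I antigen presentation, 0 passed p under 0.05 against saline, where 4.45% (CFA3D) and 11.1% (CFA6D) of all gene sums did. B2m, the shared light chain, measured 145, 121 and 117 FPKM in saline, 165, 205 and 129 on CFA3D, and 105, 118 and 138 on CFA6D. It was lower on CFA6D than on CFA3D (log2 change -0.45, p under 0.05 before adjustment as in 7.39% of all gene sums, adjusted p = 0.641). The heavy chain H2-D1 was highest in CFA6D replicate 6 (91.3 FPKM) and CFA3D replicate 2 (85.5), as against 53.8 to 74.9 in the others, and H2-K1 measured 29.7 to 48.5. Tap1, a subunit of the peptide transporter, measured 1.95, 1.93 and 1.66 FPKM in saline and 2.67, 1.98 and 4.37 on CFA6D (log2 change 0.61, adjusted p = 0.479). These groups did not overlap, as in 10.7% of all gene sums. Nlrc5, the activator of class I genes, measured 4.73 FPKM in CFA3D replicate 2 and 4.69 in CFA6D replicate 6, against 1.52 to 2.44 in the others.

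The 7 negative regulators gave 0 calls against saline, where 4.45% (CFA3D) and 11.1% (CFA6D) of all gene sums had a p under 0.05. Samhd1, which removes nucleotides and so limits viral replication and the sensing of nucleic acid, measured 21.8 FPKM in CFA6D replicate 6 and 14.5 in CFA3D replicate 2, against 9.04 to 11.5 in the others. Ptpn6, a phosphatase of blood cells, measured 10.6 FPKM in CFA6D replicate 6 and 2.22 to 4.57 elsewhere. Socs3, an inhibitor of Jak kinases that many cytokines induce, measured 4.60, 5.97 and 4.69 FPKM on CFA3D and 3.56, 2.79 and 3.43 on CFA6D (log2 change of -0.62 between the days, adjusted p = 0.641).

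Single transcripts showed where the gene sums of the factors came from. The 9 genes had 37 transcripts in the table, of which 27 passed the filter. On CFA3D 1 of these 27 had a p under 0.05, where 4.67% of 66206 transcripts did, and on CFA6D 5 of 27 did, where 6.81% of transcripts did. None had an adjusted p under 0.05.

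Most of Stat2 was split between a coding transcript of 4394 bases (ENSMUST00000085708, 31.6% of the gene sum) and a transcript of 736 bases with a retained intron (ENSMUST00000218863, 34.4%). The short one measured 5.18, 6.02 and 0.963 FPKM in saline, 5.81, 9.51 and 3.83 on CFA3D, and 5.75, 1.28 and 8.74 on CFA6D, and it carried the low sums of saline replicate 3 and CFA6D replicate 5. The coding one measured 4.04, 3.90 and 4.23 FPKM in saline, 4.41, 5.21 and 4.76 on CFA3D, and 4.68, 5.54 and 6.51 on CFA6D. All 6 CFA libraries of this coding transcript lay above the 3 saline libraries, an order found in 1.89% of all transcripts tested. Its log2 change from saline was 0.44 at day 6, where the adjusted p was 0.639, and 0.23 at day 3, where it was 0.989. Another coding transcript, ENSMUST00000105238 (4397 bases, 1.39% of the gene sum), went the other way. Its log2 change from saline was -0.94 at day 6 (adjusted p = 0.765) and -0.90 at day 3 (adjusted p = 0.989). How reads were shared between these coding transcripts was not tested, so the order is that of ENSMUST00000085708 and not of all coding Stat2 RNA.

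The minor transcripts of Irf9 shown in full here were picked after their values were seen. Another, ENSMUST00000136109 (14.9% of the gene sum, with a retained intron), ranged from 0.331 to 2.27 FPKM, and its groups overlapped. ENSMUST00000145680, a transcript of 3869 bases with a retained intron that made up 10.9% of the gene sum, measured 0.524, 0.316 and 0.421 FPKM in saline, 0.609, 0.687 and 0.726 on CFA3D, and 0.803, 0.899 and 1.18 on CFA6D. The 3 groups did not overlap, with CFA6D above CFA3D above saline as in 0.245% of all transcripts tested, and the log2 change from saline was 0.59 at day 3, where the adjusted p was 0.989, and 1.03 at day 6, where it was 0.436. The coding ENSMUST00000138037 (6.25% of the gene sum) was listed at 0 in saline replicate 1 and in all CFA6D libraries, at 1.18 and 1.33 FPKM in the other saline libraries and at 0.261 to 0.455 on CFA3D. Such a 0 can be a failed estimate, so no fold is given.

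Irf7 had 13 transcripts. Those of largest share, ENSMUST00000155744 (20.7% of the gene sum), ENSMUST00000210506 (19.5%) and ENSMUST00000127161 (14.7%), all retain an intron. In CFA6D replicate 6 they measured 1.15, 1.37 and 1.96 FPKM. In the other libraries they ranged from 0.251 to 0.644, from 0.229 to 0.631 and from 0.0421 to 0.586 FPKM. The coding ENSMUST00000106023 measured 0.126, 0.206 and 0.159 FPKM in saline and 0.270, 0.494 and 0.766 on CFA6D (log2 change 1.14, adjusted p = 0.678), without overlap, as in 6.7% of all transcripts tested. ENSMUST00000156938, which retains an intron, measured 0.310, 0.161 and 0.359 FPKM in saline and 0.0815, 0.0855 and 0.117 on CFA6D (log2 change -0.92, adjusted p = 0.668), also without overlap, the order CFA6D below saline being found in 5.48% of all transcripts tested. ENSMUST00000106023 and ENSMUST00000156938 were singled out after their values were seen. Both are under 1 FPKM, and the sharing of reads between overlapping transcripts of 1 gene by the authors' software was not tested.

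**Figure D5:**
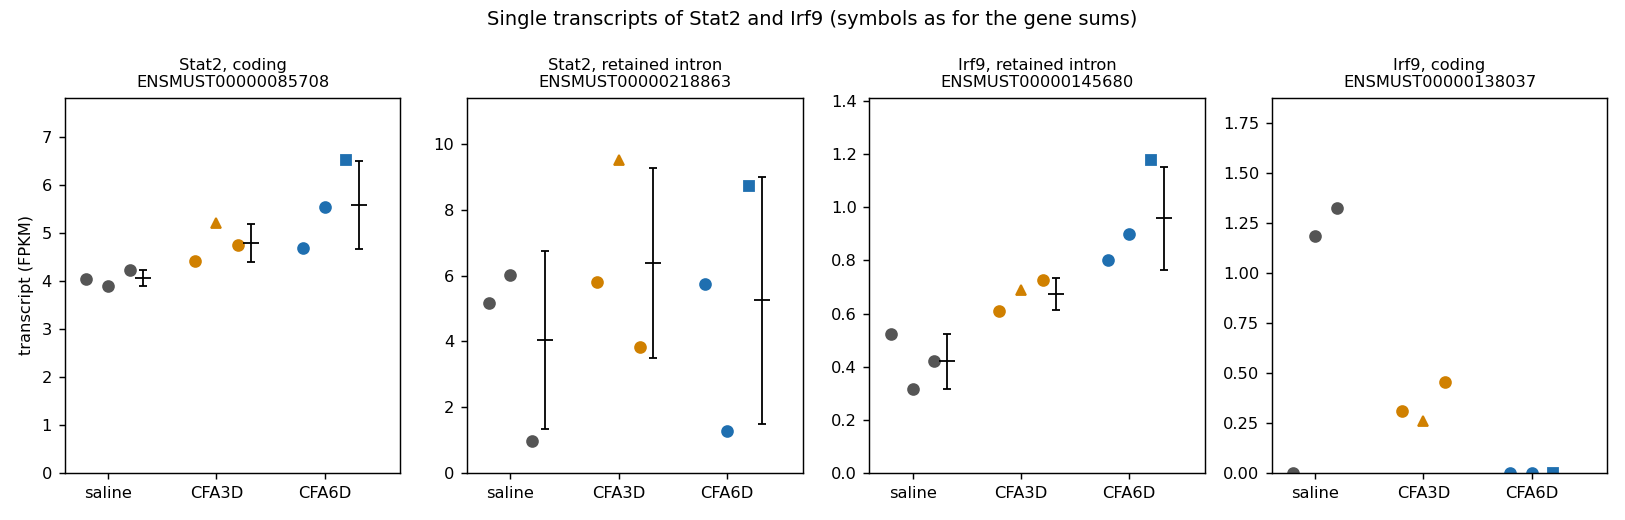
FPKM (y axis, from 0) of 2 transcripts of Stat2 and 2 of Irf9 in the saline, CFA3D and CFA6D libraries, with each library as a symbol, the mean ± SD of 3 libraries as a bar (none for ENSMUST00000138037, listed at 0 in 4 libraries), CFA3D replicate 2 as a triangle and CFA6D replicate 6 as a square. The coding Stat2 transcript shown (ENSMUST00000085708) and the retained-intron Irf9 transcript lie higher in each CFA library than in any saline library. The short Stat2 transcript varies from 0.963 to 9.51 within and between groups.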

How the data were processed

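RNA of the TG was measured in 9 libraries of 3 groups. Levels came as transcript FPKM, which the authors deposited in an mRNA table. Their tables of lncRNA and of other noncoding RNA held 0 transcripts of the members and were not used. The study's methods name Trimmomatic, GRCm38 and CLC Genomics Workbench, whereas the submitters' processing notes list Bowtie 0.12.2 and mm8. The tool that gave FPKM is not given in the sources used here. No per-sample column was left out (0 columns of other samples).

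Of 102122 mRNA transcripts, 101539 matched GENCODE M21 by name and were summed to genes. Values were compared as log2(FPKM + 0.1) with limma 3.58.1 (R 4.3.3), all 9 libraries in 1 fit with a trend in the mean, and Benjamini-Hochberg adjustment over all 16096 gene sums or 66206 transcripts. P-values measure the spread between pools. An exact permutation of 3 and 3 libraries cannot give a p below 0.1, so none is given. Read pairs were estimated from the step of low values, but only 39.4 to 47.9% of low values came out whole within 0.1 of a pair, so no count test was run. Tests were tried on simulated data with 200 moved genes. Other steps ran in Python 3.11.15.

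The members, lists and tests were chosen with earlier results of these data known. Named from the lists were, by rule, the 3 genes of highest mean FPKM per list, and per comparison all genes with p under 0.05 and a log2 change of at least 1, or else the 3 of smallest p. Oas2, Oas3, Gvin1, Ifnb1, Ifna2, Ifna13, Irf8 and Ikbke were named after their values were seen. Ciita was named to describe its list. Alternatives were the pseudocount, the filter, quantile normalization, the libraries fitted, the highest transcript per gene, the trend, a replicate block and each library left out, and after the data were seen 2 libraries left out together and a scale of read pairs.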

Additional observations from a re-analysis of the deposited data

Results flagged for a closer look

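The CFA days differed by an unadjusted p under 0.05 and a log2 change of at least 1 for 2 genes of the pathway, each with CFA6D set against CFA3D in limma. The lists tested held 1 ligand, 6 receptor, 11 signalling, 12 sensor, 39 other induced, 19 gamma, 10 class I and 7 negative regulator genes. Of all gene sums, 7.39% had a p under 0.05 in this comparison. The share that also met the fold was not computed, so the count of 2 is not read as a result about the pathway. Ifnk was lower on CFA6D, by -1.14 (adjusted p = 0.577). Ifnlr1 was higher, by 1.11 (adjusted p = 0.671), with 1.22 FPKM in CFA6D replicate 6 and 0.246 and 0.378 FPKM in the other CFA6D libraries. Neither passed after adjustment.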

How the results depend on the processing

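No member passed p under 0.05 in any comparison as reported, and with CFA6D set against CFA3D this held under every alternative run. Elsewhere the count moved. A replicate block gave 1 member on CFA3D against saline (Ifit1). The shared numbers of saline and CFA3D did not pair the libraries (correlations of deviations 0.087, -0.080 and 0.030), and CFA6D shares no number with them. Fitting only the libraries compared gave 1 member on CFA6D (Bst2). Leaving out 1 library gave 0 to 2 members on CFA3D, 0 to 1 on CFA6D and 0 to 2 for both days, with 2 (Ifit1 and Bst2) without CFA3D replicate 1. Estimated read pairs gave 3 members on CFA3D, 2 on CFA6D and 3 for both days, but that scale is not corrected for depth, moved the median of all gene sums by 0.23, 0.21 and 0.22 and called 22.6%, 18.9% and 26.2% of them.

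The signs of log2 changes turned as follows, the cause not being tested. On CFA3D, Irf9 was at -0.067 by its highest transcript. Rsad2 was at 0.0053 with a pseudocount of 1, at 0.025 after quantile normalization and at 0.23 by read pairs. Stat2 between the days was at 0.092 by read pairs.

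Without CFA3D replicate 2 and CFA6D replicate 6 together, the values on CFA3D were Isg15 -0.16, Irf7 -0.19, Irf9 -0.072 and Ifitm3 -0.027. On CFA6D they were Ifit3 -0.082, Irf7 -0.13, Irf9 -0.031, Rsad2 -0.067 and Ifitm3 -0.086. For both days they were Ifit3 -0.017, Isg15 -0.041, Irf7 -0.16, Irf9 -0.051, Rsad2 -0.20 and Ifitm3 -0.057.

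With 1 library left out at a time, the ranges for such genes on CFA3D were -0.16 to 0.67 for Isg15, -0.19 to 0.23 for Irf7, -0.072 to 0.19 for Irf9, -0.33 to 0.34 for Rsad2 and -0.027 to 0.37 for Ifitm3. On CFA6D they were -0.082 to 0.57 for Ifit3, -0.13 to 1.00 for Irf7, -0.031 to 0.38 for Irf9, -0.067 to 0.83 for Rsad2 and -0.086 to 0.36 for Ifitm3, each low end being the value without CFA6D replicate 6. Between the days they were -0.45 to 0.12 for Ifit1, -0.37 to 0.28 for Ifit3, -0.14 to 0.73 for Isg15, -0.18 to 0.95 for Irf7, -0.31 to 0.19 for Stat2, -0.048 to 0.32 for Bst2, -0.10 to 0.32 for Irf9, -0.055 to 0.84 for Rsad2 and -0.29 to 0.20 for Ifitm3. For both days they were 0.10 to 0.43 for Ifit3, 0.14 to 0.62 for Isg15, -0.043 to 0.52 for Irf7, 0.019 to 0.23 for Irf9, -0.040 to 0.51 for Rsad2 and 0.060 to 0.28 for Ifitm3. With 3 pools a group and intervals of more than 1 log2 unit for 7 of the 9 members, modest differences were not detectable.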
